A study of Mus musculus with 11 samples.

Results

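Leucine, isoleucine and valine are the branched chain amino acids, and 10 genes of their breakdown in mitochondria are described here in the mouse heart. The genes were taken as a fixed list of symbols: Bcat2, Bckdha, Bckdhb, Dbt, Ppm1k, Bckdk, Ivd, Mccc1, Mccc2 and Hibadh. All 10 were found among the 46517 genes of the count table, and all 10 were among the 14619 genes that passed the filter on low counts, with 250 to 7151 counts in any library. The rule for choosing them names the genes and no measured value, but the list was made with earlier results of these data known.

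RNA was sequenced in bulk from ventricular myocardium, 1 library per sample. In the KO mice both Lmnb2 alleles were floxed, and Cre recombinase was carried under the promoter of Tnnt2, a troponin gene of cardiomyocytes, so that the deletion concerns cardiomyocytes and not the other cells of the tissue. The controls, called WT as in the labels, are described as carrying the same Cre. At 10 to 12 weeks of age the mice had transverse aortic constriction (TAC), a suture around the aortic arch that raises the pressure load of the left ventricle, or sham surgery. WT mice gave 2 libraries after sham and 3 after TAC, and KO mice 3 after each, at a time after surgery that the labels do not state. The genotype label of WT sham 2 reads WT, where those of the other 4 controls read Lmnb2 WT, and neither label names Cre. The labels do not say more of the replicates than that they are separate samples, so p-values measure the spread between these samples.

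The first reaction of the pathway is a reversible transamination, which passes the amino group to 2-oxoglutarate and leaves a branched chain keto acid. The keto acid is then decarboxylated by a mitochondrial multienzyme complex, the committed step, which a kinase switches off by phosphorylation and a phosphatase switches on again. The chains of leucine, isoleucine and valine are then taken apart separately and end as acetyl-CoA, acetoacetate or succinyl-CoA. The heart is one of the organs that oxidise these amino acids, and the pathway has been studied in the pressure-loaded heart.

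The sequence just upstream of the start is shown for Bckdhb and Ppm1k, the members with the smallest p-values for TAC against sham over both genotypes among those in the table of upstream sequences. Each run holds the 250 bases before the start of a RefSeq transcript on build GRCm38.p6, read 5′ to 3′ on the strand of the gene, and each start lies 8 (Bckdhb) or 19 (Ppm1k) bases from the start of the gene in the GENCODE M21 annotation. Capitals mark every match, on either strand, to GGGCGG, the GC box of Sp factors, which reads CCGCCC from the other strand, or to CACCC, a box of Krüppel-like factors, which reads GGGTG from the other strand.
Bckdhb, chr9:83924887-83925136, plus strand: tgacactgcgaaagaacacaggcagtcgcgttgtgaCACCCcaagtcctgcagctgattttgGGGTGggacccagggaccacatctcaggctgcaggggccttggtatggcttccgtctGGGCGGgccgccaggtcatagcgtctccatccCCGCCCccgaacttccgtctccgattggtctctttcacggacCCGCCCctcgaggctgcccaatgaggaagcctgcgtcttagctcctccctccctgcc
Ppm1k, chr6:57535488-57535737, minus strand: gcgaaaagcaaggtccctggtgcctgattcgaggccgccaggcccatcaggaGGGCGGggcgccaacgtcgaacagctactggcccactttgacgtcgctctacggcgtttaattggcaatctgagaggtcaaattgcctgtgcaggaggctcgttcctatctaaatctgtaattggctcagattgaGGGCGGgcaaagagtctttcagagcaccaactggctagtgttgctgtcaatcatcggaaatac
The Bckdhb run holds 3 GGGCGG and 2 CACCC matches, and the Ppm1k run 2 GGGCGG matches and no CACCC match, with no matches overlapping. Of the 10 members 9 matched the RefSeq table, with 11 such windows, and Dbt did not. GGGCGG was in 4 of the 11 windows and in 32.7% of all 32851 windows, and CACCC in 7 of the 11 and in 52% of all. A nuclear receptor site, AAGGTCA, which reads TGACCTT from the other strand, was searched as well and was in 0 of the 11 and in 4.08% of all. These are counts of letters in short windows.

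Library totals ran from 14770383 to 17333227 counts. Lmnb2, which checks the genotype labels, was at 4.44 and 3.86 CPM (counts scaled to a common library size with the TMM factors of edgeR) in WT after sham and at 2.86, 2.16 and 6.70 CPM in WT after TAC. The libraries labelled KO had 0.649, 1.81 and 2.43 CPM of Lmnb2 after sham and 9.72, 3.24 and 4.46 CPM after TAC, so that after TAC they were not lower than WT. KO and WT below are therefore the labels. Mitochondrially encoded genes held 32.8 to 49.4% of counts in sham and 13.2 to 35.9% in TAC libraries. All 16 cardiomyocyte markers were detected, while the 4 atrial markers summed to 1.15 to 16.3 CPM against 48905 to 87697 CPM for the cardiomyocyte markers.

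All 10 genes were lower after TAC than after sham in the fitted means of both genotypes. In WT 7 of 10 passed the test as lower (edgeR quasi-likelihood, adjusted p under 0.05 over all tested genes), where 3.04% of all tested genes did so and 3.88% passed as higher. In KO 6 of 10 passed as lower, against 1.37% of all genes (3.32% passed as higher). In the fit over both genotypes 9 of 10 passed as lower, against 8.96% of all genes lower and 10.6% higher. The median log2 change of the 10 genes was -1.65 in WT, -1.16 in KO and -1.32 over both, where the median of all tested genes was 0.05, 0.03 and 0.05. In bulk tissue fewer cardiomyocytes and less RNA per cardiomyocyte cannot be told apart.

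**Figure D1:**
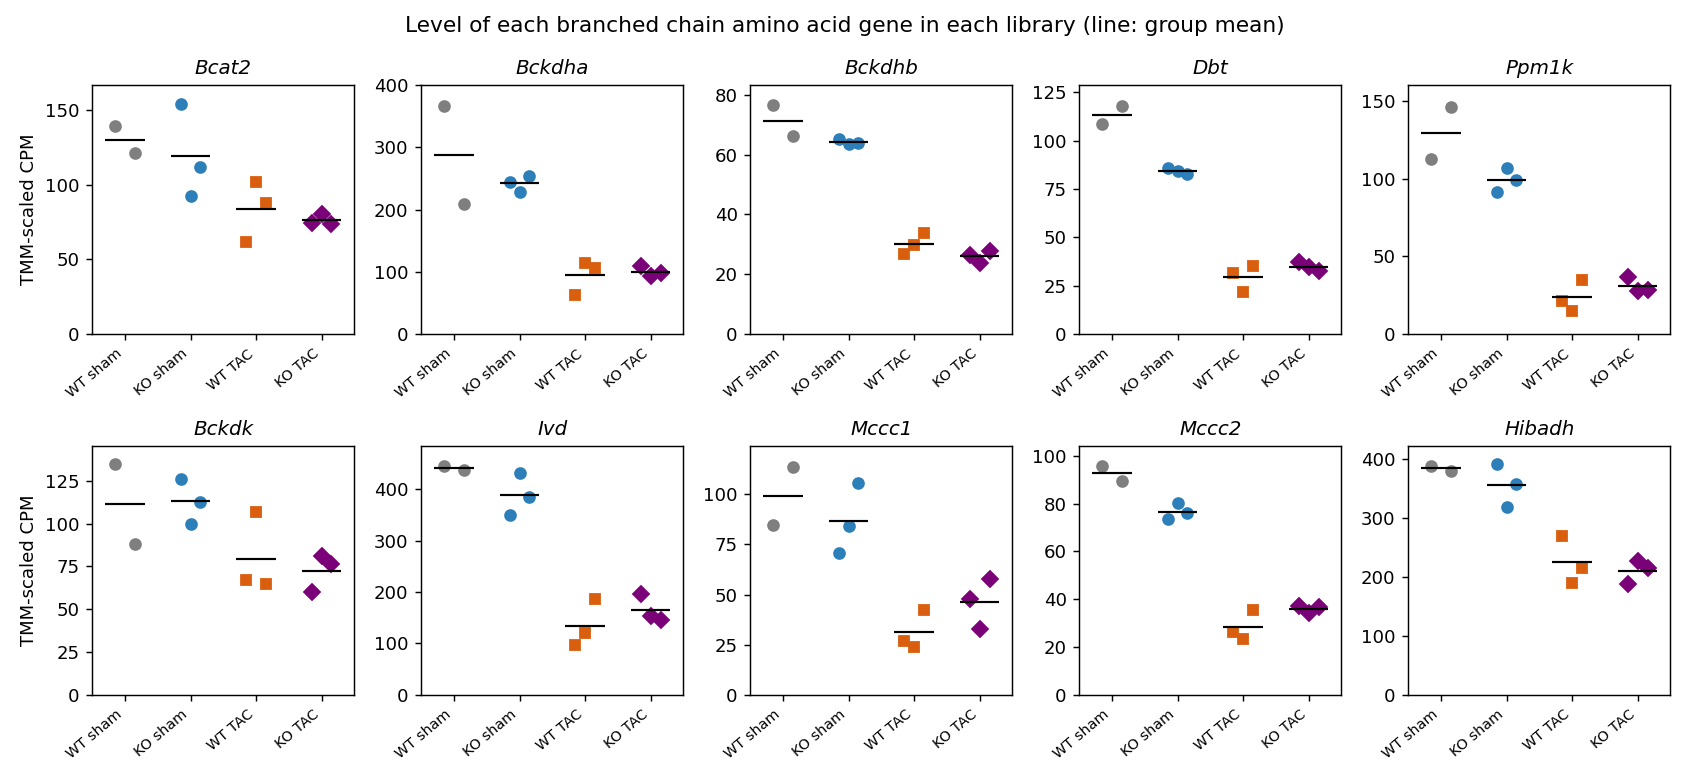
TMM-scaled CPM (vertical axis, from 0, a scale per panel) of each of the 10 genes in each library of the 4 groups; points are libraries and lines group means. In 8 of 10 panels every TAC point lies under every sham point, the exceptions being Bcat2 and Bckdk.

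Every TAC library lay below every sham library of its genotype for 9 of 10 genes in WT and for 10 of 10 in KO, where this held for 21.2% and 12.8% of all tested genes. Over both genotypes together it held for 8 of 10 genes, against 7.01% of all. Bcat2 and Bckdk were the exceptions over both genotypes, and Bckdk was the exception in WT.

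Bcat2 (chromosome 7, 45570153 to 45589711, plus strand, GRCm38 as are all positions below) encodes the mitochondrial transaminase that starts the breakdown. In WT mice Bcat2 was at 139 and 121 CPM after sham and at 62.0, 102 and 87.6 CPM after TAC, and in KO mice at 154, 92.5 and 112 CPM after sham and at 74.5, 80.2 and 73.7 CPM after TAC. The groups did not overlap within a genotype, but WT TAC 2 stood above KO sham 2. Its log2 change was -0.64 ± 0.29 (SE) in WT (adjusted p = 0.195, edgeR) and -0.65 ± 0.27 in KO (adjusted p = 0.204), and neither passed. Over both genotypes it fell by 0.64 ± 0.19 (adjusted p = 0.0286), a call lost in 11 of 22 alternatives, with adjusted p from 0.0068 to 0.423. An antisense gene, 0610005C13Rik, covers 15.9% of its exon bases, and reads from the 2 strands cannot be told apart because the strand setting was not given.

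Bckdha, Bckdhb and Dbt encode the decarboxylase alpha and beta subunits and the acyl transferase core of the branched chain keto acid dehydrogenase complex. All 3 passed the test as lower in WT, in KO and over both genotypes.

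Bckdha (chromosome 7, 25629946 to 25658981, minus strand) encodes the subunit that carries the regulatory phosphorylation. In WT mice Bckdha was at 366 and 210 CPM after sham and at 62.0, 114 and 106 CPM after TAC, and in KO mice at 244, 228 and 254 CPM after sham and at 110, 92.9 and 98.8 CPM after TAC. WT sham 1 stood apart from the other sham libraries, and the highest TAC library was below the lowest sham library. The log2 change was -1.61 ± 0.32 in WT (adjusted p = 0.0154, edgeR) and -1.27 ± 0.30 in KO (adjusted p = 0.0305). The exons of B3gnt8, a gene on the other strand, cover 61.7% of those of Bckdha, and B3gnt8 itself was counted at 0.551 to 3.72 CPM, higher in 5 of 6 TAC libraries than in any sham library.

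Bckdhb (chromosome 9, 83925145 to 84124240, plus strand), whose upstream sequence is printed above, had close values within groups. In WT mice Bckdhb was at 76.6 and 66.1 CPM after sham and at 26.9, 29.7 and 33.7 CPM after TAC, and in KO mice at 65.1, 63.7 and 63.9 CPM after sham and at 26.6, 23.9 and 27.8 CPM after TAC. The TAC libraries of both genotypes lay far under all sham libraries. It fell by 1.24 ± 0.23 in WT (adjusted p = 0.0102, edgeR) and by 1.30 ± 0.21 in KO (adjusted p = 0.0053) on the log2 scale.

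Dbt (chromosome 3, 116513070 to 116549981, plus strand) encodes the core to which the other subunits bind. In WT mice Dbt was at 109 and 118 CPM after sham and at 31.6, 21.6 and 35.4 CPM after TAC, and in KO mice at 86.1, 84.4 and 82.7 CPM after sham and at 37.0, 34.6 and 32.5 CPM after TAC. Both WT sham values stood above all 3 KO sham values, a difference of -0.43 ± 0.26 that did not pass (adjusted p = 1, edgeR). Dbt fell by 1.94 ± 0.26 in WT (adjusted p = 0.0026) and by 1.28 ± 0.23 in KO (adjusted p = 0.0099). The WT call was kept in all 23 alternatives, and the KO call was lost in 4 of 23 (library totals, cardiomyocyte marker scaling, titles ending in M only and without KO TAC 2), with adjusted p up to 0.141.

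Ppm1k and Bckdk encode the mitochondrial phosphatase that activates the complex and the kinase that inactivates it. Ppm1k (chromosome 6, 57506502 to 57535468, minus strand), whose upstream sequence is also printed above, showed the largest log2 change of the 10 genes. In WT mice Ppm1k was at 113 and 146 CPM after sham and at 21.1, 14.6 and 35.1 CPM after TAC, and in KO mice at 91.3, 107 and 99.0 CPM after sham and at 36.8, 27.5 and 28.7 CPM after TAC. The mean of the TAC libraries was 24.6% of the mean of the sham libraries, with no overlap. It fell by 2.45 ± 0.34 in WT (adjusted p = 0.0032, edgeR), by 1.67 ± 0.31 in KO (adjusted p = 0.0106) and by 2.03 ± 0.24 over both (adjusted p = 0.00017). Its WT call was kept in all 23 alternatives and the call over both genotypes in all 22, while the KO call was lost in 3 of 23 (titles ending in M only, without KO TAC 2 and without KO TAC 3), with adjusted p up to 0.157.

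Bckdk (chromosome 7, 127904082 to 127910221, plus strand) showed the smallest change. In WT mice Bckdk was at 135 and 87.9 CPM after sham and at 66.9, 107 and 64.5 CPM after TAC, and in KO mice at 126, 99.9 and 113 CPM after sham and at 60.1, 81.2 and 76.2 CPM after TAC. WT TAC 2 stood above WT sham 2 and KO sham 2, so the groups overlapped. The log2 change was -0.49 ± 0.31 in WT (adjusted p = 0.339, edgeR), -0.64 ± 0.28 in KO (adjusted p = 0.233) and -0.57 ± 0.20 over both (adjusted p = 0.059). Over both genotypes it passed in 3 of 22 alternatives, with adjusted p from 0.0219 to 0.586.

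The ratio of Ppm1k to Bckdk counts in the same library does not depend on how libraries are scaled. In WT mice the ratio was 0.836 and 1.66 after sham and 0.315, 0.136 and 0.544 after TAC, and in KO mice 0.723, 1.07 and 0.879 after sham and 0.613, 0.339 and 0.376 after TAC. No TAC library reached the lowest sham library. On the log2 scale the WT means were 0.24 ± 0.70 (SD, n = 2) after sham and -1.81 ± 1.01 (n = 3) after TAC, and the KO means -0.19 ± 0.28 (n = 3) and -1.23 ± 0.46 (n = 3). Averaged over the genotypes it fell by 1.54, with p = 0.01 in a 2-sided exact permutation test of surgery within genotype (200 arrangements, of which each counts for 0.005). This ratio was chosen with earlier results of these data known. It pairs the members with the largest and the smallest change, so this p does not allow for the choice of the pair. Within one genotype the design cannot reach 0.05: the exact permutation p was 0.2 for WT (log2 difference -2.04) and 0.1 for KO (-1.04). Without WT sham 2 the difference was -1.29 (exact permutation p = 0.05), and over the libraries with titles ending in M it was -1.46 (exact permutation p = 0.0556). Among the sham libraries the ratio fell as the share of counts from ribosomal protein genes rose. It went from 1.66 at 0.651% (WT sham 2) to 0.723 at 1.72% (KO sham 1). The TAC ratios nearest to sham, 0.613 and 0.544, were in KO TAC 1 and WT TAC 3, at 0.870% and 1.32%. The other TAC libraries had 3.17 to 6.73%. The part of this share in the difference was not tested.

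**Figure D2:**
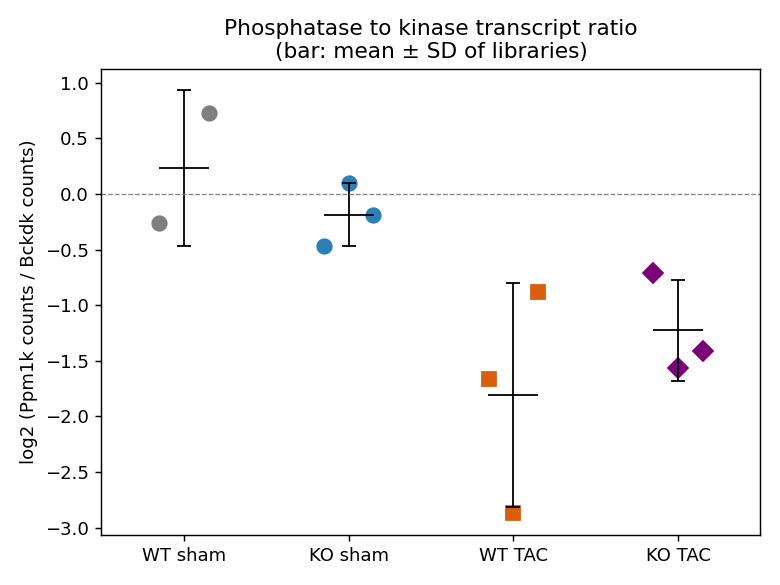
Log2 ratio of Ppm1k to Bckdk counts (vertical axis) in each library of the 4 groups, with the mean and SD of the libraries as bars. The 6 TAC libraries lie under the 5 sham libraries, and WT TAC has the widest spread (SD 1.01).

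Ivd, Mccc1 and Mccc2 act next on the chain of leucine. Ivd (chromosome 2, 118861954 to 118882909, plus strand) encodes isovaleryl-CoA dehydrogenase, which passes its electrons to the respiratory chain. In WT mice Ivd was at 445 and 438 CPM after sham and at 97.9, 121 and 186 CPM after TAC, and in KO mice at 349, 432 and 385 CPM after sham and at 196, 153 and 146 CPM after TAC. It fell by 1.71 ± 0.31 in WT (adjusted p = 0.0096, edgeR) and by 1.24 ± 0.28 in KO (adjusted p = 0.028), with no overlap between TAC and sham.

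Mccc1 (chromosome 3, 35959312 to 36000678, minus strand) encodes the biotin-carrying subunit of methylcrotonyl-CoA carboxylase. In WT mice Mccc1 was at 84.9 and 114 CPM after sham and at 26.8, 24.0 and 42.4 CPM after TAC, and in KO mice at 70.7, 83.9 and 105 CPM after sham and at 47.7, 32.6 and 57.9 CPM after TAC. The spread within groups was wide, and KO TAC 3 came closest to the lowest sham library, KO sham 1. The log2 change was -1.68 ± 0.33 in WT (adjusted p = 0.0153, edgeR), and in KO it was -0.91 ± 0.30 and did not pass (adjusted p = 0.113).

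Mccc2 (chromosome 13, 99948530 to 100015639, minus strand) encodes the carboxyltransferase subunit of the same enzyme. In WT mice Mccc2 was at 95.7 and 89.6 CPM after sham and at 26.3, 23.1 and 35.6 CPM after TAC, and in KO mice at 73.7, 80.4 and 75.9 CPM after sham and at 37.3, 34.3 and 36.6 CPM after TAC. As for Dbt, both WT sham values were above the KO sham values. Mccc2 fell by 1.71 ± 0.25 in WT (adjusted p = 0.0037, edgeR) and by 1.09 ± 0.23 in KO (adjusted p = 0.0183).

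Hibadh (chromosome 6, 52546228 to 52640389, minus strand) encodes 3-hydroxyisobutyrate dehydrogenase of valine breakdown. In WT mice Hibadh was at 389 and 380 CPM after sham and at 270, 189 and 216 CPM after TAC, and in KO mice at 393, 320 and 358 CPM after sham and at 189, 227 and 215 CPM after TAC. Every TAC library was below every sham library, with a smaller fitted change than in the 3 leucine genes. The log2 change of -0.77 ± 0.26 in WT (adjusted p = 0.0944, edgeR) and -0.76 ± 0.24 in KO (adjusted p = 0.0949) did not pass, while over both genotypes Hibadh fell by 0.77 ± 0.17 (adjusted p = 0.0069).

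**Figure D3:**
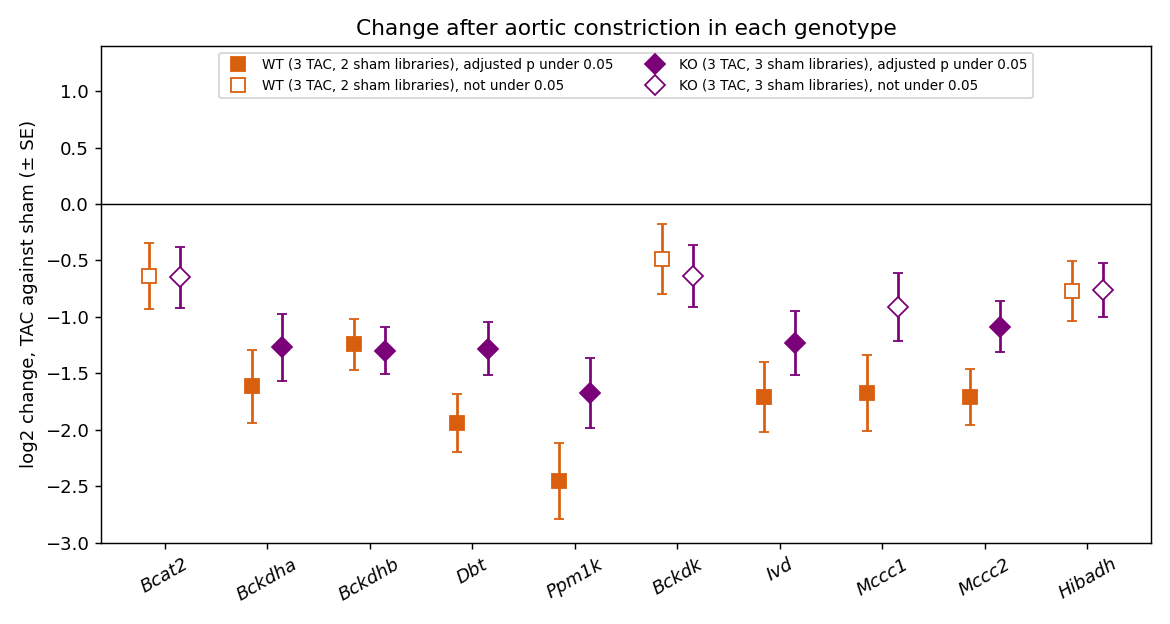
Log2 change of TAC against sham (vertical axis, ± SE) for each gene in WT and in KO; filled symbols have an adjusted p under 0.05. Bckdhb lies at the same place in both genotypes (-1.24 and -1.30), while Ppm1k, Dbt, Mccc1 and Mccc2 lie lower in WT, differences that did not pass the test.

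The changes of the 10 genes depended on the scaling of libraries in size, but not in direction. With library totals in place of TMM factors the median change of all tested genes moved to 0.37 in WT, 0.49 in KO and 0.45 over both, and the calls over all genes went from 444 lower and 567 higher to 133 and 1044 in WT, from 201 and 486 to 60 and 1325 in KO, and from 1310 and 1545 to 385 and 3577 over both. The members called, all lower, were then 5 in WT, 1 in KO and 7 over both. Scaling by the cardiomyocyte markers gave 6, 2 and 7, with medians of all genes of 0.35, 0.45 and 0.42. The calls over all genes were then 174 lower and 975 higher in WT, 78 and 1154 in KO, and 462 and 3171 over both. Less the median of all genes, the members' median over both genotypes was -1.37 with TMM and -1.36 with library totals. These had to be close, because a change of scaling moves all genes by about the same amount. Bcat2, Bckdk and Hibadh had log2 changes of -0.22, -0.18 and -0.36 with library totals and did not pass over both genotypes, while the other 7 members did.

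**Figure D4:**
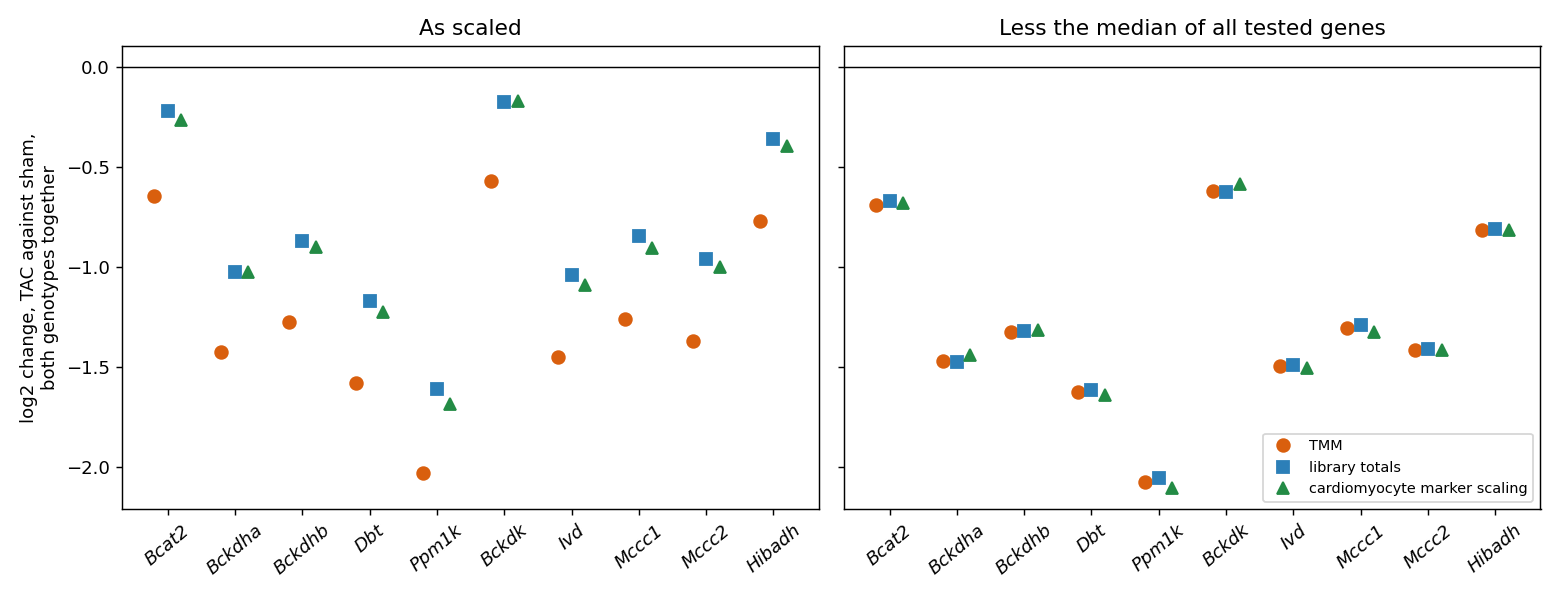
Log2 change of TAC against sham over both genotypes (vertical axis) for each gene under 3 scalings of the libraries, as scaled (left) and less the median change of all tested genes (right). The 3 scalings differ on the left, by a like amount for each gene, and therefore lie together on the right.

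Leaving out libraries moved the number of calls in the single genotypes. Without WT sham 1 there were 2 calls in WT and without WT sham 2 there were 4. The calls lower over all tested genes fell as well, from 444 of 14619 to 10 of 15565 and 44 of 15584. In KO there were 1 without KO TAC 2, 2 without KO TAC 3 and 3 without any one of the KO sham libraries. Over all tested genes the KO calls lower went from 201 to 43 without KO TAC 2 and to 83 without KO TAC 3. Without KO sham 1, 2 and 3 they were 52, 75 and 65. Over both genotypes the number of members called stayed between 8 and 10, with 696 to 1891 calls lower over all genes. Without WT sham 1 the WT calls of Bckdha, Bckdhb, Ivd, Mccc1 and Mccc2 were lost, and without WT sham 2 those of Bckdhb, Ivd and Mccc1. The WT call of Mccc1 was lost also without WT TAC 1 or WT TAC 2. The KO calls of Bckdha, Ivd and Mccc2 were each lost without any one of KO sham 1 to 3, KO TAC 2 and KO TAC 3, that of Ppm1k without KO TAC 2 or KO TAC 3, and that of Dbt without KO TAC 2. The libraries with titles ending in M alone gave 3 calls in WT, 0 in KO (9 of 10 had an unadjusted p under 0.05 there, with 2 libraries left in each KO group) and 8 over both genotypes. The calls lower over all 14191 genes then tested were 41, 15 and 559.

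None of the 14619 genes tested after the filter on low counts passed the edgeR test for KO against WT after sham (0% of genes), KO against WT after TAC (0%) or the interaction, which asks whether the change after TAC differs between genotypes (0%). In these comparisons 185, 930 and 434 of 14619 genes had an unadjusted p under 0.05, and DESeq2 called 3, 6 and 2 and limma-voom 0, 0 and 0. Without the filter edgeR tested 24235 genes and called 20, 206 and 80 of them, without KO TAC 1 and WT TAC 3 it called 2, 14 and 1, and with only the groups compared 4 after sham, none of them a member. Of the 10 members none had an unadjusted p under 0.05 in these 3 comparisons, and DESeq2 and limma-voom called none of them. Without WT TAC 3, 4 of the 10 had an unadjusted p under 0.05 in the interaction and 4 for KO against WT after TAC. Of all 14490 genes then tested 1633 and 3029 did so. Without KO TAC 1 and WT TAC 3 these were 3 and 2 of the 10, and 1359 and 1890 of 14363 genes. No member passed in either setting. After sham the log2 differences of KO from WT ran from -0.43 ± 0.26 (Dbt) to 0.02 ± 0.31 (Bckdk). After TAC they ran from -0.21 ± 0.21 (Bckdhb) to 0.57 ± 0.30 (Mccc1). The interaction was 0.78 ± 0.45 for Ppm1k, 0.76 ± 0.45 for Mccc1, 0.66 ± 0.35 for Dbt and 0.62 ± 0.33 for Mccc2 (adjusted p = 0.992 for each, edgeR), and between -0.15 and 0.47 for the other 6. Positive values mean a smaller fall in KO. The number of calls in WT and KO, 7 and 6, is thus not shown to differ.

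Levels were also put in order per kilobase, with all annotated exons of a gene merged as its length. The length of the expressed transcripts was not measured, so the order rests on annotated lengths, from 1805 bases (Bckdhb) to 10952 (Mccc1). Before the division Mccc1 and Mccc2 (2802 bases) stood close in WT sham, at 99.4 and 92.6 CPM. In WT sham Bckdha stood first with 152 ± 58.3 CPM per kb (SD, n = 2) and Ivd next with 80.2 ± 0.89. Bckdhb, Hibadh, Dbt, Bcat2, Mccc2 and Bckdk lay between 39.5 ± 4.15 and 30.1 ± 8.98 in this order, Ppm1k at 21.5 ± 3.92 and Mccc1 at 9.07 ± 1.87. From Bckdhb to Ppm1k neighbours in the order differed by less than the larger of their SDs, except Hibadh and Dbt. In WT TAC Bckdha (49.5 ± 14.7, n = 3) still stood first. Next came Ivd (24.5 ± 8.27), Hibadh (22.1 ± 4.07), Bckdk (21.5 ± 6.47), Bcat2 (21.5 ± 5.16) and Bckdhb (16.7 ± 1.90). From Ivd to Bckdhb neighbours differed by less than the larger of their SDs, while Bckdhb and Mccc2 differed by more. Mccc2 followed at 10.1 ± 2.32, Dbt at 8.82 ± 2.12, Ppm1k at 3.92 ± 1.74 and Mccc1 at 2.84 ± 0.91, where Mccc2 and Dbt, and Ppm1k and Mccc1, again differed by less than the larger SD. Bckdk and Ppm1k, the kinase and the phosphatase, thus stood at 30.1 and 21.5 CPM per kb in WT sham and at 21.5 and 3.92 in WT TAC. In KO TAC they stood at 19.6 ± 2.98 and 5.15 ± 0.85.

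Within the TAC libraries the 10 genes did not share one order. WT TAC 2 was the lowest of the 6 TAC libraries for 4 genes (Dbt, Ppm1k, Mccc1 and Mccc2) and the highest for 3 (Bcat2, Bckdha and Bckdk). KO TAC 1 was the highest for 4 genes (Dbt, Ppm1k, Ivd and Mccc2), and WT TAC 1 the lowest for 3 (Bcat2, Bckdha and Ivd). Over all 11 libraries the correlation of each gene's log2 CPM with the mean of the other 9 was 0.70 for Bckdk, 0.81 for Bcat2 and 0.87 to 0.98 for the other 8, a description over libraries that share the surgery difference. The genes with a pattern most like the mean of the 10, by the same measure among genes of at least 10 CPM, were Coq10a (r = 0.99), Hadhb (0.98), Mipep (0.98), Gstm7 (0.98) and Pdha1 (0.97).

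The other 25 genes of the pathway that were listed (carriers, remaining enzymes of the 3 chains, propionate use and the regulator Klf15) were all tested, and their median changes were smaller. In WT 5 were called lower and 0 higher, in KO 3 lower and 1 higher, and over both genotypes 12 lower and 3 higher, with median log2 changes of -0.60, -0.61 and -0.55. Over all 14619 genes edgeR called 444 lower in WT, 201 in KO and 1310 over both genotypes. Of the 25 genes DESeq2 called 9 lower and 1 higher in both WT and KO, and over all genes it called 861 lower in WT and 551 in KO. With library totals edgeR called 0 in WT and 1 higher in KO (9 and 5 had an unadjusted p under 0.05), and 5 lower and 4 higher over both. The WT count fell to 0 without WT sham 1 or WT sham 2, to 2 without WT TAC 2 and to 3 without WT TAC 1, and the KO count of 4 to 0, 0 and 1 without KO sham 1, 2 and 3, to 2, 0 and 1 without KO TAC 1, 2 and 3, and to 2 when either WT sham library or WT TAC 2 was left out. Aldh6a1, the dehydrogenase that ends valine breakdown, fell by 1.37 ± 0.26 in WT (adjusted p = 0.0126, edgeR), by 1.08 ± 0.24 in KO (adjusted p = 0.0248) and by 1.21 ± 0.17 over both (adjusted p = 0.00048). Its call was lost in 6 of 23 alternatives in WT and in 8 of 23 in KO, and was kept in all 22 over both. Mut, the methylmalonyl-CoA mutase that makes succinyl-CoA, fell by 1.48 ± 0.29 in WT (adjusted p = 0.0131), from 159 to 180 CPM in WT sham to 40.6 to 74.1 CPM in WT TAC. This WT call was lost in 5 of 23 alternatives. The log2 change of Mut was -0.81 ± 0.26 in KO, which did not pass (adjusted p = 0.102, edgeR). Over both genotypes it was -1.11 ± 0.20 (adjusted p = 0.0025, edgeR), and the interaction did not pass (0.68 ± 0.39, adjusted p = 0.992). Acat1, the thiolase that ends isoleucine breakdown and also acts on ketone bodies, fell by 1.16 ± 0.27 in WT (adjusted p = 0.0244) and by 1.06 ± 0.17 over both (adjusted p = 0.0011). Its log2 change in KO was -0.97 ± 0.24 (adjusted p = 0.0403, edgeR). The WT call of Acat1 was lost in 9 of 23 alternatives, among them library totals and the cardiomyocyte marker scaling. The other 2 called in WT were Pcca and Mmab, and Pcca, a subunit of propionyl-CoA carboxylase, fell by 1.0 ± 0.17 over both genotypes (adjusted p = 0.0015). Klf15, a transcription factor known to promote the expression of pathway genes, fell by 1.41 ± 0.34 in KO (adjusted p = 0.0345), a call lost in 10 of 23 alternatives (highest adjusted p = 0.134, edgeR). In WT its log2 change was -0.59 ± 0.37 (adjusted p = 0.335), and the interaction did not pass (-0.82 ± 0.50, adjusted p = 0.992). Over both genotypes the log2 change of Klf15 was -1.05 ± 0.27 (adjusted p = 0.0157, edgeR).

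The 3 genes that rose over both genotypes were 1 transaminase and 2 carriers, all at low levels. Their number fell to 1 without WT sham 1 or without WT sham 2, and to 2 without KO sham 2, without KO sham 3, with limma-voom and in 3 further alternatives. Bcat1, the cytosolic transaminase, rose by 2.38 ± 0.58 in KO (adjusted p = 0.0368, edgeR), from 0.278 to 0.664 CPM in KO sham to 2.08 to 3.32 CPM in KO TAC, and by 2.03 ± 0.43 over both (adjusted p = 0.0055). Its KO call was lost in 8 of 23 alternatives. Slc7a5 and Slc43a1, plasma membrane carriers of large neutral amino acids that were named after their values were seen, rose over both genotypes by 1.28 ± 0.35 (adjusted p = 0.0202) and 1.35 ± 0.37 (adjusted p = 0.0211). Bcat1 thus went up where Bcat2 went down, but at 2.25 ± 0.44 CPM in WT TAC (n = 3) it remained far under the 83.7 ± 20.1 CPM of Bcat2, and per kilobase at 0.24 against 21.5.

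**Figure D5:**
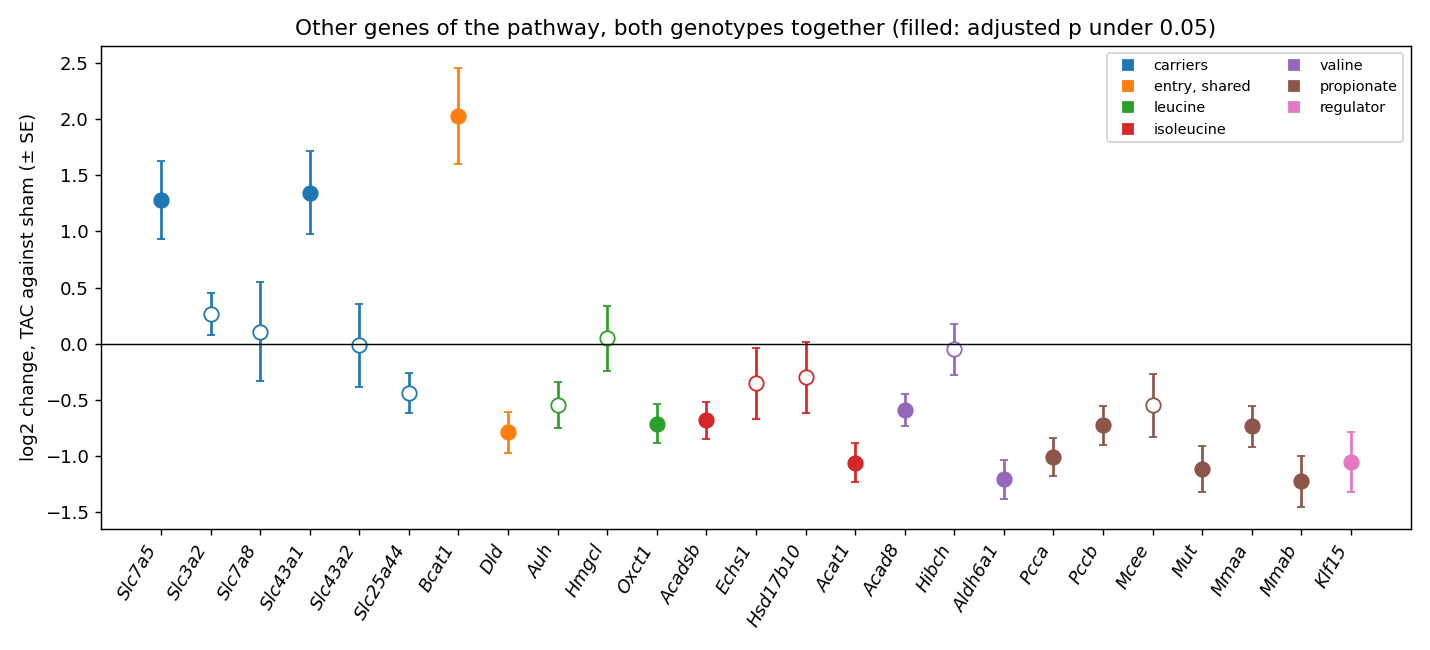
Log2 change of TAC against sham over both genotypes (vertical axis, ± SE) for the 25 other genes of the pathway, coloured by step; filled symbols have an adjusted p under 0.05. The 3 filled symbols above 0 are Slc7a5, Slc43a1 and Bcat1, and 12 filled symbols lie below 0.

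The tricarboxylic acid cycle, which takes up the carbon of the pathway, is given for comparison. Of its 17 listed genes edgeR called 5 lower in WT, 0 in KO and 15 over both genotypes, and none higher. In KO 15 of the 17 had an unadjusted p under 0.05, and DESeq2 called 11 lower and limma-voom 1. With library totals 4 were called over both genotypes. Over all 14619 genes the calls lower were 444, 201 and 1310 with edgeR, and in KO 551 with DESeq2 and 206 with limma-voom. With library totals edgeR called 385 of all genes lower and 3577 higher over both genotypes. The median change was -0.88 in WT, -0.79 in KO and -0.85 over both, against -1.65, -1.16 and -1.32 for the 10 members, and these medians were not tested against each other.

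Markers of other cells moved with surgery too. The 16 cardiomyocyte markers summed to 62590 to 87697 CPM after sham and 56577 to 73994 CPM after TAC in WT, and to 70815 to 86005 and 48905 to 60998 CPM in KO, and 3 in WT and 2 in KO were called lower, with median log2 changes of -0.10 and -0.28. The 10 fibroblast markers summed to 1357 to 1408 CPM after sham and 3497 to 6302 CPM after TAC in WT, and to 1729 to 1897 and 2790 to 3327 CPM in KO, and 5 were called higher in WT, and 4 higher and 1 lower in KO. The 10 macrophage markers summed to 229 to 367 CPM after sham and 438 to 2449 CPM after TAC in WT, and to 234 to 444 and 494 to 1552 CPM in KO, and 3 were called higher in WT, 3 in KO and 9 over both genotypes. Of the 8 mural cell markers 2 were called higher in WT, 1 in KO and 3 over both genotypes, where 5 fibroblast markers were called higher and 1 lower. Also called higher over both genotypes were 1 of the 3 skeletal muscle markers tested and Myl4, the 1 of 4 atrial markers that was tested (log2 change 1.99). The 10 endothelial markers ran from 359 to 1144 CPM over the TAC and from 512 to 715 CPM over the sham libraries, and edgeR called 0 of them over both genotypes (0 had an unadjusted p under 0.05). The 6 skeletal muscle markers ran from 0.945 to 4.91 CPM in sham, from 11.5 to 106 CPM in WT TAC and from 2.24 to 21.1 CPM in KO TAC, with Myh1 at 0 in 10 of 11 libraries. The part of these shifts in the changes of the 10 genes was not tested. With scaling by the cardiomyocyte markers the members' median was -1.32 in WT, -0.74 in KO and -0.95 over both genotypes, and the members called fell to 6, 2 and 7. The calls lower over all 14619 genes fell as well, to 174, 78 and 462. Ribosomal protein genes held 0.651 to 1.72% of counts in sham and 0.870 to 6.73% in TAC libraries, with WT TAC 3 (1.32%) and KO TAC 1 (0.870%) inside or near the sham range. Without these 2 libraries 7 of 10 members were called in WT, 7 in KO and 9 over both genotypes. Over all 14363 genes then tested the calls lower rose as well, from 444, 201 and 1310 of 14619 to 2077, 1036 and 2748. An edgeR fit that adjusted for ribosomal protein share called 6 members lower in WT, 7 in KO and 9 over both genotypes. The calls lower over all 14619 genes were then 176, 609 and 1279. The members' median was -1.31, -1.04 and -1.16, against -1.65, -1.16 and -1.32 in the main fit. Their median was 0.037 for KO against WT after TAC and 0.19 for the interaction, against 0.16 and 0.41. No member passed in these 2 comparisons.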

How the data were processed

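Values are raw counts of 11 libraries, as deposited, by Ensembl gene. STAR 2.5.1, featureCounts and DESeq2 with build GRCm38 are named, per the submitters' processing notes. Their roles, the annotation and the strand setting are not stated in the labels. No column was left aside (0). Symbols, exon lengths and positions came from GENCODE M21.

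The fits used edgeR 4.0.16 (R 4.3.3): filterByExpr, TMM factors and glmQLFit with 1 mean per group (7 residual degrees of freedom), or genotype plus surgery for both genotypes together (8). Tests were 2-sided with Benjamini-Hochberg adjustment over 14619 genes and a threshold of 0.05; SEs, the log2 change over the root of F, are approximate. Level correlations used log2 CPM with a prior count of 2. DESeq2 1.42.0 and voom of limma 3.58.1 were alternatives. On simulated data 200 genes among 14234 were changed by 4-fold in the TAC libraries, alike in both genotypes. The model called 124 of them for the surgery comparison in WT, 164 for that in KO and 193 over both genotypes. No interaction was simulated, so the 0 of them called in the interaction does not measure its power. Over both genotypes the fitted falls of the members ran from 1.49-fold (Bckdk) to 4.07-fold (Ppm1k). The simulated recovery at 4-fold does not measure the power for smaller changes.

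The members, the lists and the Ppm1k to Bckdk ratio were chosen with earlier results of these data known. The named genes were all members, Lmnb2, the 3 other pathway genes with the smallest p per surgery comparison and the 5 genes most like the members. Upstream sequences were planned for the 2 members with the smallest p. Dbt was among them and is not in the RefSeq table, so Ppm1k, the next, was taken. All titles begin with TAC, so surgery was read from the treatment label. Of the titles 3 end in F (KO sham 2, WT TAC 1 and KO TAC 3) and 8 in M, so WT sham holds M titles only. With this letter as a covariate 7 members were called in WT, 6 in KO and 9 over both genotypes. The calls lower over all 14619 genes were then 249, 186 and 1176. Nothing in the labels pairs the samples.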

Additional observations from a re-analysis of the deposited data

How the results depend on the processing

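All log2 changes of the 10 members for TAC against sham, in WT, KO and both genotypes, kept their negative sign under all alternatives that were run. The members called in WT numbered 7 and became 3 with titles ending in M only and 4 with only the groups compared, and 2 to 7 with 1 library left out. Over all tested genes the WT calls lower went from 444 to 41 and 138, and to 10 to 1227 with 1 library left out. In KO the 6 became 1 with library totals, 2 with the cardiomyocyte marker scaling and 0 with titles ending in M only (edgeR), and 1 to 6 with 1 library left out. Over all tested genes the KO calls lower went from 201 to 60, 78 and 15, and to 43 to 390 with 1 library left out. The number of members called over both genotypes stayed within 7 to 10. Over all alternatives the other pathway genes called ran from 0 to 10 in WT, 0 to 10 in KO and 9 to 18 over both. The fit of only the groups compared is the same as the main one for the interaction and for both genotypes and was not repeated. The Ppm1k to Bckdk log2 difference was -1.46 with titles ending in M only (exact permutation p = 0.0556), -2.04 in WT alone (p = 0.2, exact) and -1.04 in KO alone (p = 0.1, exact), and -1.79 to -1.28 with 1 library left out. These alternatives have fewer samples; the cause of other moves was not tested. The other reversals concern KO against WT and the interaction, where no member passed. After sham, Bcat2 was at 0.037 with titles ending in M only and Bckdk at -0.028 with library totals, and with 1 library left out Bcat2 ran from -0.35 to 0.029, Bckdha from -0.60 to 0.21, Bckdk from -0.26 to 0.36 and Mccc1 from -0.39 to 0.024. After TAC, Bckdk was at 0.0036 and Hibadh at 0.032 with library totals, Bcat2 at 0.011, Bckdk at 0.0071 and Hibadh at 0.056 with the cardiomyocyte marker scaling, Bckdha at -0.045 and Hibadh at 0.017 with ribosomal protein share as covariate, and Bckdha at -0.12 and Hibadh at 0.032 with titles ending in M only. With 1 library left out Bcat2 ran from -0.31 to 0.019, Bckdha from -0.13 to 0.25, Bckdk from -0.26 to 0.13, Hibadh from -0.22 to 0.052 and Lmnb2 from -0.066 to 1.24. For the interaction, Bcat2, Bckdhb and Bckdk were at 0.16, 0.087 and 0.031 with library totals, and Bcat2 and Bckdhb at 0.079 and 0.050 with the cardiomyocyte marker scaling. Bcat2 was at 0.039 with limma-voom, 0.0044 without a filter and 0.0044 without KO TAC 1 and WT TAC 3, and Hibadh at -0.033 with DESeq2 size factors and -0.033 with DESeq2. With 1 library left out the interaction ran from -0.19 to 0.21 for Bcat2, -0.11 to 0.70 for Bckdha, -0.17 to 0.057 for Bckdhb, -0.49 to 0.14 for Bckdk and -0.12 to 0.16 for Hibadh. No paired analysis was possible because nothing in the labels pairs the samples.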
